A study of Mus musculus with 6 samples.

Results

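Ly6 genes encode small cell surface proteins that are used throughout mouse haematology to tell blood cells apart. The 5 genes described here are Ly6c1, Ly6c2, Ly6g, Ly6a and Ly6e, taken by name from 55487 genes measured by RNA-seq in cultured bone marrow progenitors. Earlier results of the same comparison were known when these 5 were put together, so their values are given as a description without a test, and nothing is read from how many of them differ. All 5 were present once in the table and all 5 had a mean above 3, the minimum for the 18766 genes entered in tests.

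The cells were mouse bone marrow cells selected for Kit, the receptor for stem cell factor. They had received an overexpressing lentivirus carrying MLLT3, either in its wild-type form (WT, 3 libraries) or as a double mutant of its YEATS domain with K63E and K67E (DM, 3 libraries). Both groups were sorted and grown in methylcellulose for 8 days with Flt3 ligand at 10 ng/mL, with cytokines that included EPO, SCF, GM-CSF, IL-3, IL-6 and IL-11 at 20 ng/mL each, with gentamycin, and with 200 nM 4-hydroxytamoxifen to delete the cells' own Mllt3. The promoter of the vector, the Mllt3 allele that was deleted, the strain and age of the mice, and whether replicates came from separate cultures or animals are not given in the sources used here, so spreads and p-values refer to these libraries alone. MLLT3 is a subunit of transcription elongation complexes that reads acylated histones, and the comparison asks what changes in the RNA of these cells when the mutant replaces the wild type.

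Ly6 proteins carry an LU domain, a compact fold held together by disulphide bonds, and are tied to the outer membrane by a glycosylphosphatidylinositol (GPI) anchor. Their genes sit side by side in a cluster on mouse chromosome 15. Ly6C, the product of Ly6c1 and Ly6c2, marks inflammatory monocytes and is also found on neutrophils and some lymphocytes and endothelial cells. Ly6G marks maturing neutrophils, and the antibody against Gr-1 that is used to stain myeloid cells binds Ly6G and also Ly6C. Ly6a encodes Sca-1, by which mouse stem cells are sorted, and it is induced by interferons. Ly6e is broadly expressed and is also interferon-inducible.

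Ly6c1 and Ly6c2 are close copies, which limits how well short reads can be assigned to either. Their coding sequences, both 396 bases long and read as the longest open reading frame in the GENCODE M21 transcripts, differed at 9 positions (97.7% identical). The first 150 bases, which hold 6 of the 9 differences, are shown because the differences are densest there. Capitals mark the differing bases.
Ly6c1: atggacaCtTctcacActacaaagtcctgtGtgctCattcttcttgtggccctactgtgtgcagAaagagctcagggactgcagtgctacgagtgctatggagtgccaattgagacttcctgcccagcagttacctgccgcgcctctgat
Ly6c2: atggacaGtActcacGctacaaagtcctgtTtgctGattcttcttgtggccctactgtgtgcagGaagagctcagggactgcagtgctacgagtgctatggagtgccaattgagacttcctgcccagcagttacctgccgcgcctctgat

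Of all 50-base windows in the annotated transcripts of Ly6c1, 32.8% also occurred in a transcript of another gene, most of them in Ly6c2 and the next most in Ly6a. The share was 14.4% for Ly6c2 and 19% for Ly6a, but 0.448% for Ly6g, and no window of Ly6e was shared. With windows of 100 bases the shares were 10.1% for Ly6c1, 5.81% for Ly6c2 and 1.45% for Ly6a. The read length, and whether reads that fit several genes were counted, are not given in the sources used here, so the split between Ly6c1 and Ly6c2 is uncertain. No annotated gene overlapped any of the 5 on either strand.

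Upstream sequence was found for 3 of the 5 genes in a table of RefSeq promoters on GRCm38.p6, and it is shown because Ly6c2 and Ly6g were the members with the largest differences, while their relative Ly6c1 was not among them. The window of Ly6a2, a neighbouring pseudogene described further on that was also lower in DM, is shown with them. Ly6c1 was measured at a low level, where differences are understated, so it does not stand for a gene without a difference. Each stretch runs from 250 bases before a RefSeq start site to 50 bases after. Capitals mark GAGGAAGT, the motif of ETS factors of the PU.1 type. PU.1 is a transcription factor needed for myeloid cells.
Ly6c2, chr15:75111922-75112221, minus strand: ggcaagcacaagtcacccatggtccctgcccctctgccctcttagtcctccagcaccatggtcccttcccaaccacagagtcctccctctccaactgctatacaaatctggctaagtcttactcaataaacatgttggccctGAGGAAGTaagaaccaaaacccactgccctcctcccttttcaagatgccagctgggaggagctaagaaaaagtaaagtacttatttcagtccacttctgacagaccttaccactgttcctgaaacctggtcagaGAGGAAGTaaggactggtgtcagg
Ly6g, chr15:75155011-75155310, plus strand: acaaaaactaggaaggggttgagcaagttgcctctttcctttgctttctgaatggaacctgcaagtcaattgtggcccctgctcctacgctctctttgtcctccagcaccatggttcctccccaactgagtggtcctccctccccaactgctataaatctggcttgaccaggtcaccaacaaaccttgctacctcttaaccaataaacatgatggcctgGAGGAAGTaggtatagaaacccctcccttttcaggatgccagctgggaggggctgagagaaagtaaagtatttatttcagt
Ly6c1, chr15:75048788-75049087, minus strand: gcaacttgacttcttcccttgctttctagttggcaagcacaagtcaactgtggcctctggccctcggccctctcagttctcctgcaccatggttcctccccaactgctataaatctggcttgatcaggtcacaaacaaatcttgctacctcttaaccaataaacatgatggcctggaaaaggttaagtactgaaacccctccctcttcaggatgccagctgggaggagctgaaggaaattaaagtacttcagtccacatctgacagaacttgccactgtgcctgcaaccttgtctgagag
Ly6a2, chr15:75135079-75135378, minus strand: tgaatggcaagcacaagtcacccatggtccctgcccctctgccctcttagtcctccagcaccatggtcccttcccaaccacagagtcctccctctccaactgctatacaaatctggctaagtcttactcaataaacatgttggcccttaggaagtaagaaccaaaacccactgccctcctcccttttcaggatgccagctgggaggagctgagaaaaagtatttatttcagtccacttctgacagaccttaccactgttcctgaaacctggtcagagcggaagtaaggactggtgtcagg

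GAGGAAGT, searched on both strands, began 108 bases before and 26 bases after the start site in Ly6c2 and 31 bases before it in Ly6g, and it did not occur in the windows of Ly6c1 and Ly6a2. The exact letters were thus found in 2 genes that were lower in DM and missing from another, Ly6a2, that was also lower. At the corresponding places Ly6a2 reads TAGGAAGT and GCGGAAGT, which keep the letters GGAAGT. That shorter string was not searched in the other windows, and whether it forms a site was not tested, so nothing is read from it. GAGGAAGT in full occurred in 1051 of 32817 RefSeq promoter windows of this length (3.2%). That share is no measure of enrichment here, because the motif was chosen after the sequences were seen. The windows of Ly6c2 and Ly6g are also related (82.5% identical over aligned bases), so their matches are not independent. Of the other motifs searched on both strands in the members, the core of the interferon-stimulated response element (3.43% of windows), the STAT motif TTCNNNGAA (8.29%) and the GATA motif GATAAG (7.45%) did not occur in any of their 3 windows. TTGCNNAA, of C/EBP type (10.8%), occurred in Ly6g, and TATAAA (13.6%) in Ly6c1 and Ly6g. Over aligned bases the window of Ly6c1 was 78.2% identical to that of Ly6c2 and 84% identical to that of Ly6g. These matches are descriptions of the letters, and binding was not measured.

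The table holds regularized log values (rlog, a log2 scale), in which genes with low values are pulled toward their own mean, so that their differences are understated. Such values hold no counts, and the depth of the libraries is unknown. Library medians over the tested genes ran from 8.03 to 8.11. Kit itself was high in all 6 libraries, with values from 14.29 to 14.90. Mllt3, read as a check of the labels, was 12.87, 12.60 and 12.44 in WT and 12.44, 12.03 and 11.99 in DM, and these values do not separate the vector from the cells' own gene (-0.48, SE 0.137, limma adjusted p 0.0448, lost in 6 of 12 alternatives). Of the 18766 tested genes 2611 (13.9%) were called at a limma adjusted p under 0.05, 9.2% higher and 4.71% lower in DM, and 35.8% had groups without overlap. Leaving out DM replicate 2 gave 1119 called genes, leaving out WT replicate 1 gave 1185, and leaving out DM replicate 3 gave 1537. Of all calls 66.1% were higher in DM, and 51.3% after quantile normalization.

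Ly6c2 (ENSMUSG00000022584.14; GRCm38 chromosome 15, 75108158 to 75111970, minus strand) had the largest difference of the 5. In the order of replicates 1, 2 and 3 its rlog values were 13.70, 13.79 and 13.57 for WT and 12.21, 12.47 and 12.97 for DM. Every DM library was below every WT library, and the DM libraries lay further apart than the WT libraries. WT averaged 13.69 ± 0.109 (SD, n = 3) and DM 12.55 ± 0.386 (SD, n = 3). DM minus WT was -1.13 on the log2 scale (SE 0.162), or 2.2-fold lower in DM. It was the 55th most negative difference among all tested genes. In bulk RNA, fewer cells that carry Ly6C and less Ly6c2 RNA in each of them cannot be told apart.

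Ly6c1 (ENSMUSG00000079018.10; chromosome 15, 75044018 to 75048830, minus strand) was measured at a low level. Its values were 4.89, 4.97 and 4.96 in WT and 4.81, 4.62 and 4.91 in DM, and the groups overlapped because DM replicate 3 lay above WT replicate 1. WT averaged 4.94 ± 0.0416 and DM 4.78 ± 0.145 (SD, n = 3 each), and DM minus WT was -0.16 (SE 0.0754). Per kilobase of annotated exon, the rlog level was 12.23 in WT and 11.10 in DM for Ly6c2, against 4.19 and 4.03 for Ly6c1. The Ly6C signal in these cells therefore came almost entirely from reads assigned to Ly6c2. At the level of Ly6c1 the shrinkage of the transform is strong, and whether reads of Ly6c2 contribute to it was not tested.

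Ly6g (ENSMUSG00000022582.4; chromosome 15, 75155240 to 75159126, plus strand) was also lower in DM. The values were 8.51, 8.84 and 9.22 in WT and 7.54, 7.93 and 8.18 in DM. The groups did not overlap, although the gap between the lowest WT and the highest DM library was smaller than the range within either group. With averages of 8.85 ± 0.352 for WT and 7.88 ± 0.323 for DM (SD, n = 3 each), DM minus WT was -0.97 (SE 0.187), or 1.96-fold lower in DM. Per kilobase of exon its level was 8.94 in WT and 7.97 in DM, between those of Ly6c1 and Ly6c2.

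Ly6a (ENSMUSG00000075602.10; chromosome 15, 74994877 to 74998031, minus strand), the gene of Sca-1, had overlapping groups. Its values were 12.91, 12.60 and 12.32 in WT and 12.85, 12.58 and 12.80 in DM. The highest and the lowest of the 6 libraries were both WT. The averages were 12.61 ± 0.295 for WT and 12.75 ± 0.145 for DM (SD, n = 3 each), and DM minus WT was 0.14 (SE 0.137), no larger than the SD within either group. The difference was -0.01 without WT replicate 3, 0.29 without WT replicate 1 and 0.01 after quantile normalization.

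Ly6e (ENSMUSG00000022587.14; chromosome 15, 74955051 to 74959905, plus strand) was the most even of the abundant members. Its values were 13.50, 13.66 and 13.46 in WT and 13.71, 13.89 and 13.68 in DM. All DM libraries were above all WT libraries, the closest of them narrowly. From averages of 13.54 ± 0.104 for WT and 13.76 ± 0.112 for DM (SD, n = 3 each), DM minus WT was 0.22 (SE 0.0888), and 0.03 after quantile normalization.

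Counted over the 5 genes, 2 were called in the fit over all genes, Ly6c2 and Ly6g, both lower, beside 13.9% of all tested genes and 4.71% called lower. WT and DM were separate in 3 of the 5, Ly6c2, Ly6g and Ly6e, beside 35.8% of all tested genes. Because the genes were chosen from this contrast, these counts carry no weight of their own. Per kilobase of exon the WT levels of Ly6a (12.34), Ly6c2 (12.23) and Ly6e (11.62) were the highest, and in DM the order was Ly6a (12.48), Ly6e (11.84) and Ly6c2 (11.10). Ly6g and Ly6c1 followed in both groups. The distance between Ly6a and Ly6c2 in WT was within the spread of Ly6a over its libraries, and the other neighbours lay further apart than their SDs. The annotated exon length of Ly6c2 includes a transcript with a retained intron, which lowers its value on this scale. Ly6e had a longer annotated exon length still (3784 bases over 16 transcripts, against 2740 over 4 for Ly6c2 and 1205 over 6 for Ly6a). The order of these 3 genes per kilobase thus depends on the annotation.

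**Figure D1:**
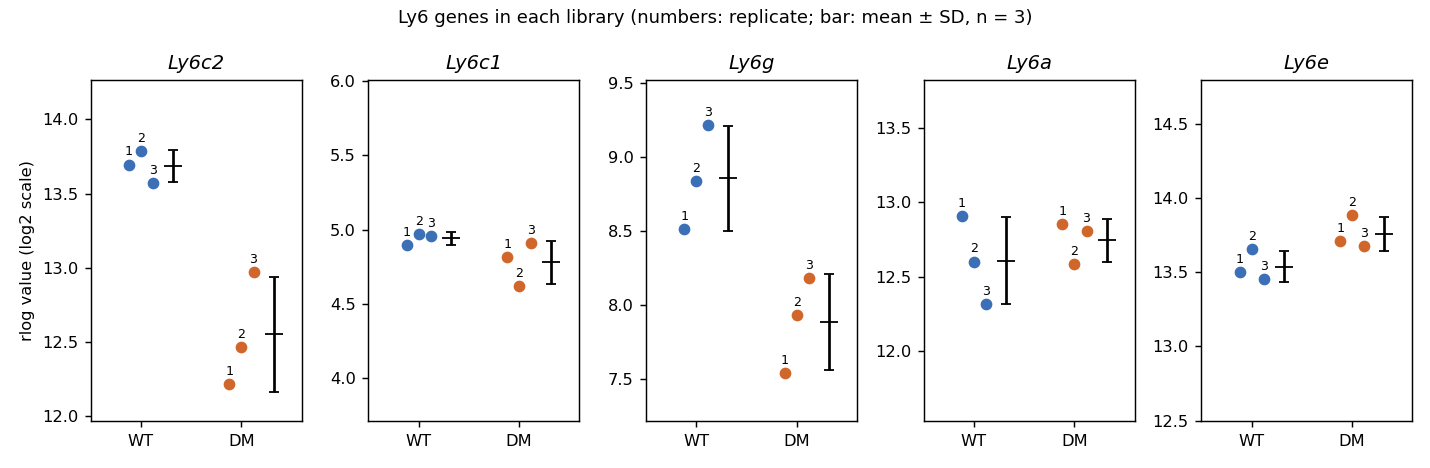
Each panel plots the rlog value (log2 scale) of a Ly6 gene in the 3 WT and 3 DM libraries, numbered by replicate, with the mean and SD of each group as a black bar; all panels span the same range. For Ly6c2 and Ly6g the DM libraries lie below the WT libraries, for Ly6c1 and Ly6a the groups overlap, and for Ly6e the DM libraries lie slightly above.

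The members also differed from each other in how the libraries were ordered. In Ly6g the lowest library of each group was replicate 1 and the highest replicate 3. In Ly6c2 the DM libraries had that same order, but in WT replicate 3 was the lowest. Subtracting Ly6a from Ly6c2 within each library gave 0.79, 1.19 and 1.26 in WT and -0.64, -0.12 and 0.17 in DM, without overlap. This mainly restates the Ly6c2 difference (-1.13), in a gene chosen from this contrast, since Ly6a differed by only 0.14. Subtracting Ly6g from Ly6c2 gave 5.18, 4.95 and 4.35 in WT and 4.67, 4.53 and 4.79 in DM, with overlapping groups, so that Ly6c2 and Ly6g were lower by about the same amount.

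The members were also placed by their position on chromosome 15. Ly6e, Ly6i and Ly6a stand within 39.8 kb of each other and had differences from 0.14 to 0.34. For Ly6a the groups overlapped, and after quantile normalization Ly6a and Ly6e differed by only 0.01 and 0.03. Ly6c2, Ly6a2 and Ly6g stand from 153.1 to 200.2 kb beyond Ly6e and had differences from -0.66 to -1.13. Ly6c1 lies between these groups, 89 kb from Ly6e. In all, 44 other genes start between the outermost LU domain genes of the cluster, and 9 of them had a mean of at least 3. Of these 9, Ly6i was called higher and Ly6a2 lower (2 of 9, beside 13.9% of all tested genes), with a median difference of -0.06 against 0.01 over all tested genes. The number called was 0 without WT replicate 3, and 1 without WT replicate 1, WT replicate 2, DM replicate 2 or DM replicate 3.

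**Figure D2:**
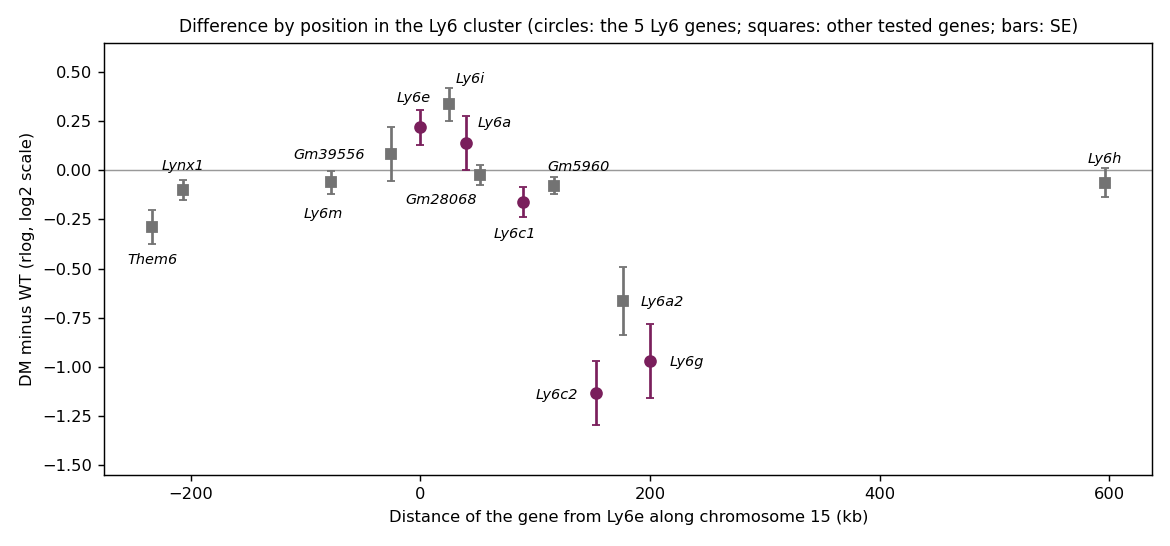
The difference DM minus WT (rlog, log2 scale, bars: SE) is plotted against the distance of each gene's lower coordinate from that of Ly6e in kb, with the 5 Ly6 genes as circles and the 9 other tested genes of the cluster as squares. Ly6e, Ly6i and Ly6a lie above 0, Ly6a by about its SE, and Ly6c2, Ly6a2 and Ly6g lie below -0.6.

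Ly6a2 (ENSMUSG00000102051.1; chromosome 15, 75131377 to 75135128, minus strand) is annotated as a transcribed pseudogene and lies between Ly6c2 and Ly6g. Its values were 11.78, 12.11 and 12.20 in WT and 10.93, 11.54 and 11.63 in DM, so that every DM library was below every WT library. Its level fell by 0.66 (SE 0.173, limma adjusted p 0.0314). The call was lost when WT replicate 2 (-0.62, limma adjusted p 0.0617), WT replicate 3 (-0.58, 0.0763) or DM replicate 2 (-0.75, 0.0505) was left out. Its RefSeq promoter window was 98.3% identical to that of Ly6c2 over the aligned bases, but held neither GAGGAAGT of that gene in full. Of its 50-base transcript windows 9.58% occurred in another gene, and none of its 100-base windows did.

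Ly6i (ENSMUSG00000022586.11; chromosome 15, 74979534 to 74983430, minus strand), a relative of Ly6a with a coding sequence 86.4% identical to it, moved the other way. Its values were 6.97, 7.12 and 7.04 in WT and 7.30, 7.30 and 7.52 in DM, and the groups did not overlap. It rose by 0.34 (SE 0.083, limma adjusted p 0.0259). Leaving out WT replicate 1 (0.3, limma adjusted p 0.103), WT replicate 3 (0.33, 0.0559) or DM replicate 3 (0.26, 0.0845) ended the call.

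Beyond the 5 members, 39 further genes with an LU domain were listed, of which 24 were below a mean of 3 and were not tested. Among the untested were Ly6d, Ly6k, Ly6f, Ly6g2 and Ly6l of the same cluster and Gpihbp1, whose product carries lipoprotein lipase. Of the 15 tested, 5 were called (beside 13.9% of all tested genes), 2 higher and 3 lower, with a median difference of -0.08. Besides Ly6i and Ly6a2 these were Cd177, Plaur and Lypd10, which lie together on chromosome 7. The number called was 3 when WT replicate 1, WT replicate 3 or DM replicate 2 was left out.

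Cd177 (ENSMUSG00000052212.6; chromosome 7, 24743983 to 24760311, minus strand) encodes a GPI-anchored surface protein of neutrophils. Its values were 13.07, 13.48 and 13.78 in WT and 11.18, 12.15 and 12.13 in DM, and every DM library was below every WT library. It fell by 1.62 (SE 0.252, limma adjusted p 0.00494). As in Ly6g, replicate 1 was the lowest library of each group.

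Plaur (ENSMUSG00000046223.10; chromosome 7, 24462484 to 24475968, plus strand) encodes the GPI-anchored receptor of urokinase, which has several LU domains. Its values were 12.75, 13.15 and 12.91 in WT and 13.28, 13.62 and 13.50 in DM, all DM libraries being above all WT libraries. It rose by 0.53 (SE 0.119, limma adjusted p 0.0179). This call ended when WT replicate 1 (0.43, limma adjusted p 0.0736), DM replicate 2 (0.45, 0.0752) or DM replicate 3 (0.51, 0.0665) was left out.

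Lypd10 (ENSMUSG00000045587.9; chromosome 7, 24709242 to 24714535, plus strand) was at 5.51, 5.62 and 5.77 in WT and at 5.06, 5.20 and 5.26 in DM, without overlap. It fell by 0.46 (SE 0.083, limma adjusted p 0.00814), and both Cd177 and Lypd10 kept their calls in all 12 alternatives. The complement regulator Cd59a was at 7.66, 7.66 and 7.65 in WT and at 7.97, 7.98 and 7.62 in DM, with DM replicate 3 below the WT libraries. Its difference was 0.2 (SE 0.098, limma adjusted p 0.213), and it passed the threshold without DM replicate 3 (0.32, 0.038). Its neighbour Cd59b differed by -0.01 (SE 0.056, limma adjusted p 0.881). The other 8 tested genes, Ly6g5b, Lynx1, Ly6m, Lypd6b, Lypd1, Lypd6, Ly6h and Lypd3, had means from 3.04 to 5.11 and differences between -0.1 and -0.06, none of them called.

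**Figure D3:**
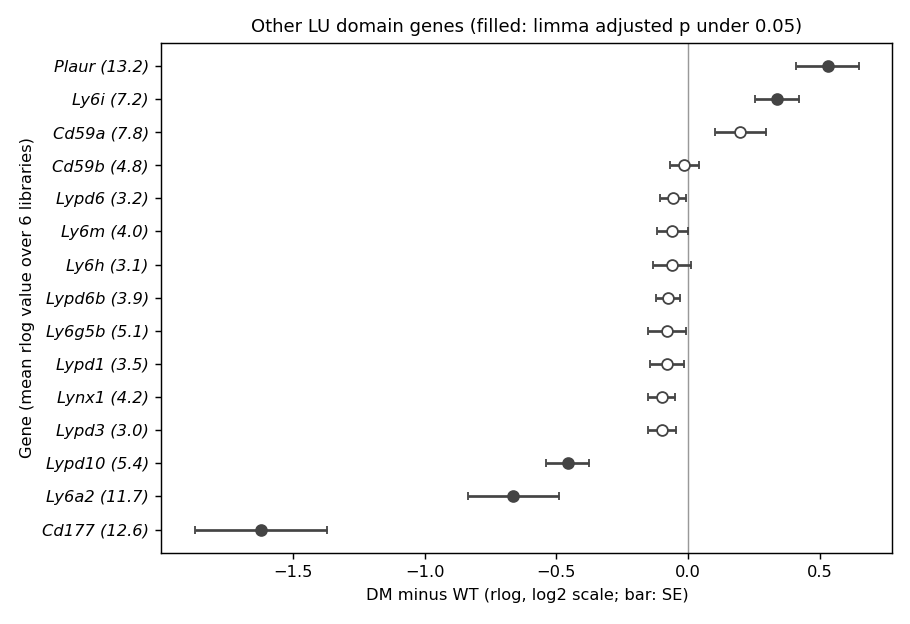
The 15 tested LU domain genes other than the 5 members are plotted by their difference DM minus WT (rlog, log2 scale, bars: SE), with the mean rlog value in brackets and filled symbols for a limma adjusted p under 0.05. Plaur and Ly6i lie above 0 and Lypd10, Ly6a2 and Cd177 below, and the genes near 0 mostly have low means.

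The machinery that builds and attaches the GPI anchor was examined because all 5 members depend on it. All 29 listed genes were tested, and 4 were called (beside 13.9% of all tested genes), 2 higher and 2 lower, with a median difference of 0.11 against 0.01 over all tested genes. Piga, the catalytic subunit of the enzyme that starts the anchor, fell by 0.43 (SE 0.077, limma adjusted p 0.00787). Its values were 9.11, 9.15 and 8.94 in WT and 8.64, 8.56 and 8.69 in DM, without overlap. Mppe1, which trims the anchor before export, fell by 0.46 (limma adjusted p 0.0236), and lost its call without WT replicate 1, WT replicate 2 or DM replicate 2 (-0.50 to -0.43, limma adjusted p 0.0503 to 0.0547).

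Pgap1, the deacylase that remodels the anchor after attachment, rose by 0.69 (SE 0.121, limma adjusted p 0.00766), from 6.89, 6.96 and 6.86 in WT to 7.45, 7.91 and 7.41 in DM. Pigu, a subunit of the transamidase that attaches the anchor, rose by 0.27 (limma adjusted p 0.0323) but lost its call in 5 of 12 alternatives. The number of GPI genes called was 2 without WT replicate 1 and 2 without DM replicate 2.

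Genes of the cells that carry these antigens were then read from lists. Of 16 genes of maturing neutrophils, the cells marked by Ly6G, 12 were called, 9 lower and 3 higher (beside 4.71% and 9.2% of all tested genes), with a median difference of -0.71. The number called higher was 1 after quantile normalization and 1 when WT replicate 1, DM replicate 2 or DM replicate 3 was left out. Cebpe, a transcription factor of late granulopoiesis, fell by 1.74 (limma adjusted p 0.000157), as did the granule genes Camp (-1.66, 0.00514) and Ngp (-1.62, 0.00787). Ltf, the lactoferrin gene, fell by 1.28 (limma adjusted p 0.0419) and lost its call in 7 of 12 alternatives. The granule genes did not all fall. Mmp8 was higher in DM without overlap (0.50, limma adjusted p 0.0521). Lcn2 (-0.45, 0.15) and Mmp9 (-0.21, 0.498) were lower with overlapping groups. None of Mmp8, Lcn2 and Mmp9 was called, and they were named after their values were seen. The genes called higher were Fpr2 (0.59, limma adjusted p 0.0094), Fpr1 (0.52, 0.0216) and Itgam (0.46, 0.0295), named after their values were seen. Under those same 4 alternatives Fpr1 (0.38 to 0.48, limma adjusted p 0.0652 to 0.0842) and Itgam (0.30 to 0.41, 0.106 to 0.116) lost their calls. Fpr1 and Fpr2 encode formyl peptide receptors and Itgam the integrin chain CD11b, which macrophages also carry.

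The summed level of the neutrophil list, the log2 of the sum of its genes on the linear scale, was 18.34, 18.76 and 19.00 in WT and 17.32, 17.90 and 18.18 in DM. Within each group the libraries had the same order as in Ly6g, with replicate 1 lowest and replicate 3 highest. S100a9 and S100a8 had the highest means of the list (16.45 and 16.22) and made up a large part of this sum. Both had that order of libraries, and a sum without them was not computed. The order of the sum therefore does not describe all genes of the list. The part of neutrophil RNA content in the Ly6g difference was not tested.

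Monocyte genes did not move in a single direction. Of 16 genes of Ly6C-high monocytes 11 were called, 6 lower and 5 higher (beside 4.71% and 9.2% of all tested genes), with a median of -0.09, and 7 were called without DM replicate 2. Plac8 fell by 2.22 (limma adjusted p 0.000176) and F13a1, which encodes a chain of coagulation factor XIII, fell by 1.49 (0.000134), while Lyz2, the lysozyme gene, rose by 0.86 (0.0176). Ifitm6 fell by 1.01 (limma adjusted p 0.0275). Ccr2, the receptor by which these monocytes leave the marrow, fell by 0.78 (0.00975), and Csf1r, the receptor of M-CSF, rose by 0.73 (0.00415), both named after their values were seen. Lyz2 lost its call without WT replicate 1, WT replicate 3 or DM replicate 2 (0.71 to 0.81, limma adjusted p 0.0656 to 0.0966), and Ifitm6 without WT replicate 2, WT replicate 3 or DM replicate 2 (-1.09 to -0.85, 0.0545 to 0.0695).

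The summed level of that list was 18.33, 18.85 and 18.21 in WT and 18.94, 19.21 and 19.00 in DM. Lyz2, at 17.81, 18.28 and 17.60 in WT and 18.57, 19.00 and 18.69 in DM, made up most of this sum. The higher sum in DM therefore does not describe the list as a whole. By their means 8 of its genes were higher in DM and 8 lower, and a sum without Lyz2 was not computed. Of 12 genes of Ly6C-low monocytes 4 were called, all 4 higher (beside 9.2% of all tested genes), with a median of 0.2. These were Cd36 (1.13, limma adjusted p 0.016), Itgax (0.98, 0.0108), Fabp4 (0.84, 0.0162) and Cd300e (0.37, 0.0121), of which Cd36, Itgax and Fabp4 are also expressed by macrophages and dendritic cells. Only Itgax was called without WT replicate 1, and only Itgax and Cd300e without DM replicate 2. Nr4a1, the transcription factor these monocytes depend on, differed by 0.07 (limma adjusted p 0.572) and Cx3cr1 by -0.05 (0.706). The part of either kind of monocyte in the Ly6c2 difference was not tested.

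Of 5 macrophage genes, C1qa was below a mean of 3 and all 4 others were called higher (beside 9.2% of all tested genes). These were Cd68 (0.94, limma adjusted p 0.00777), Mertk (0.81, 0.0131), Mrc1 (0.64, 0.0279) and Adgre1 (0.63, 0.00423). Without DM replicate 2 only 2 were called, and Mrc1 lost its call in 5 of 12 alternatives. The summed level of the list was 14.84 to 15.39 in WT and 15.72 to 16.04 in DM. Macrophages carry little Ly6C, and their part in the Ly6c2 difference was not tested.

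**Figure D4:**
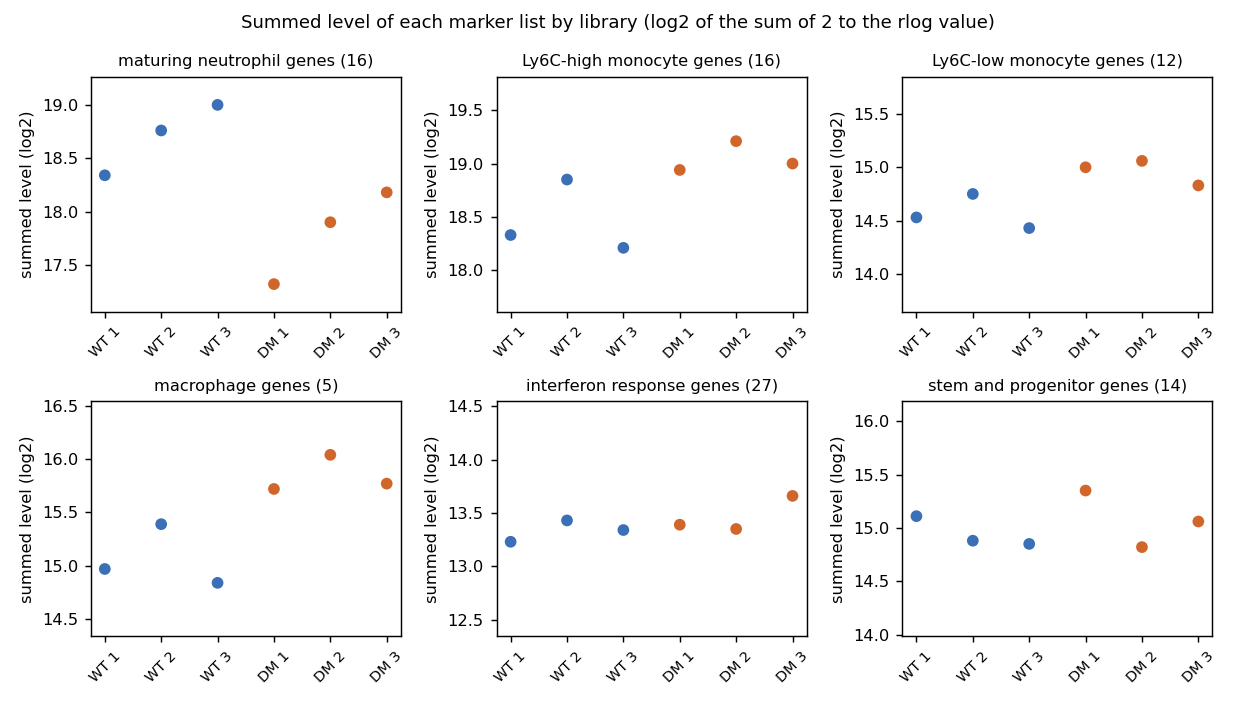
Each panel plots the summed level of a marker list (log2 of the sum over its genes on the linear scale, number of genes in brackets) in the 6 libraries, and all panels span the same range. The neutrophil list is lower in all DM libraries, from 17.32 to 18.18 against 18.34 to 19.00, the macrophage list is higher in all DM libraries, and the interferon and the stem and progenitor lists overlap.

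Interferon response genes were listed because Ly6a and Ly6e are induced by interferons. Of the 27 genes 26 were tested and 2 were called, both higher (beside 9.2% of all tested genes called higher), with a median of 0.1. These were Gbp2, a guanylate-binding protein (0.51, limma adjusted p 0.00626), and Bst2, or tetherin (0.37, 0.00997). Irf7, a transcription factor of the interferon response, differed by 0.07 (limma adjusted p 0.849) and Isg15 by 0.11 (0.481). The summed levels were 13.23 to 13.43 in WT and 13.35 to 13.66 in DM and overlapped, as did the values of Ly6a. Those of Ly6e did not overlap, at 13.46 to 13.66 in WT and 13.68 to 13.89 in DM. The part of interferon in the values of either gene was not tested.

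Stem and progenitor genes were listed because Sca-1 is used to sort such cells. Of 14 genes 4 were called, 2 higher and 2 lower (beside 13.9% of all tested genes), with a median of -0.01, and 2 were called without DM replicate 2. Thy1, another GPI-anchored surface antigen, fell by 1.27 (limma adjusted p 0.00102). Its values were 9.86, 10.36 and 9.76 in WT and 8.59, 8.83 and 8.73 in DM, without overlap. Procr, the protein C receptor of stem cells, rose by 0.73 (limma adjusted p 0.00705) and Mecom, a stem cell transcription factor, by 0.52 (0.0189), whose call was lost without DM replicate 2 (0.53, 0.0516). Flt3 fell by 0.3 (0.0494) and lost its call in 9 of 11 alternatives. Kit differed by 0.2 (0.368) and Cd34 by -0.01 (0.966). The highest summed level in both groups was that of replicate 1 (15.11 in WT and 15.35 in DM), which was also the library of each group with the highest Ly6a value. Kit made up most of this sum, at 14.58 in WT replicate 1 and 14.90 in DM replicate 1, so the match is mainly with Kit. The summed level of the mast cell, basophil and eosinophil list was also highest in replicate 1 (18.93 in WT and 19.01 in DM). This order of libraries was thus not particular to stem and progenitor genes. The part of stem and progenitor cells in the Ly6a values was not tested.

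Markers of other cells that carry Ly6C or Sca-1 were at mixed levels. Of 7 genes of plasmacytoid dendritic cells, Siglech, Ccr9, Cox6a2 and Klk1 were below a mean of 3, and none of the other 3 was called by limma (2 had an unadjusted p under 0.05), with Tcf4 the highest at a mean of 9.52. Of 12 lymphoid and plasma cell genes 8 were below it, Cd3e and Trac among them, and 1 was called, Sdc1 (0.27, limma adjusted p 0.0464), which had a mean of 6.37 and lost its call in 9 of 12 alternatives. Of 9 endothelial genes 3 were below it, and Flt1 fell by 0.59 (limma adjusted p 0.0167), a call lost without WT replicate 1 (-0.49, 0.062). Flt1 had a mean of 8.26, Kdr of 7.04 and Tie1 of 5.13, while Cdh5, the endothelial cadherin, had values from 3.97 to 4.23. The summed level of the endothelial list was 9.12 to 9.31 in WT and 8.71 to 9.01 in DM, and the part of such cells in the differences of the members was not tested.

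To see which genes followed the members across the 6 libraries, each profile was centred on its own mean and compared by root mean square difference over all tested genes. This is a description, since the distance includes the difference between the groups and the order of the libraries within them. A likeness in that order between a member and its nearest genes therefore follows from how they were picked. Nearest to Ly6g were Slco4c1 (0.0848), Csta3 (0.0899) and Padi4 (0.0931). Padi4 encodes the enzyme that citrullinates histones in neutrophils. Csta3 has close paralogs among which reads may be split, so its values are uncertain. Ly6g itself was 0.192 from Ly6a2, 0.271 from Ly6c2 and 0.367 from Cd177.

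Nearest to Ly6c2 were Nhsl2 (0.139), Rasgrp2 (0.143) and Nos2 (0.143). Nos2 encodes inducible nitric oxide synthase, and its values were 8.50, 8.83 and 8.50 in WT and 7.48, 7.57 and 8.01 in DM. Rasgrp2, an activator of the GTPase Rap1, was at 10.11, 10.25 and 10.13 in WT and at 8.77, 9.04 and 9.13 in DM. Like Ly6c2, both had their lowest value in DM replicate 1 and their highest DM value in replicate 3, a likeness for which they were picked.

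Ly6a was followed most closely by Egr1 (0.0472), Vill (0.0607) and Erdr1 (0.073). Egr1, an immediate early transcription factor, was highest in WT replicate 1 (13.59) and lowest in WT replicate 3, as was Ly6a, and was at 13.50, 13.32 and 13.47 in DM. Nearest to Ly6e were Pnpla2 (0.0189), Wbp2 (0.0194) and Clta (0.0213), and nearest to Ly6c1 were Gm37906 (0.0255), Zfp101 (0.0256) and Samd9l (0.0264). Ly6e and Ly6c1 had ranges of 0.43 and 0.35 over the 6 libraries, so small distances are easily reached there.

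Under the alternatives the differences of the members moved as follows. Ly6c2 ran from -1.35 without DM replicate 3 to -0.97 without DM replicate 1, and was -1.29 after quantile normalization. Ly6g ran from -1.14 without WT replicate 1 to -0.79 without WT replicate 3. Ly6c1 ran from -0.22 without DM replicate 3 to -0.08 without DM replicate 2.

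**Figure D5:**
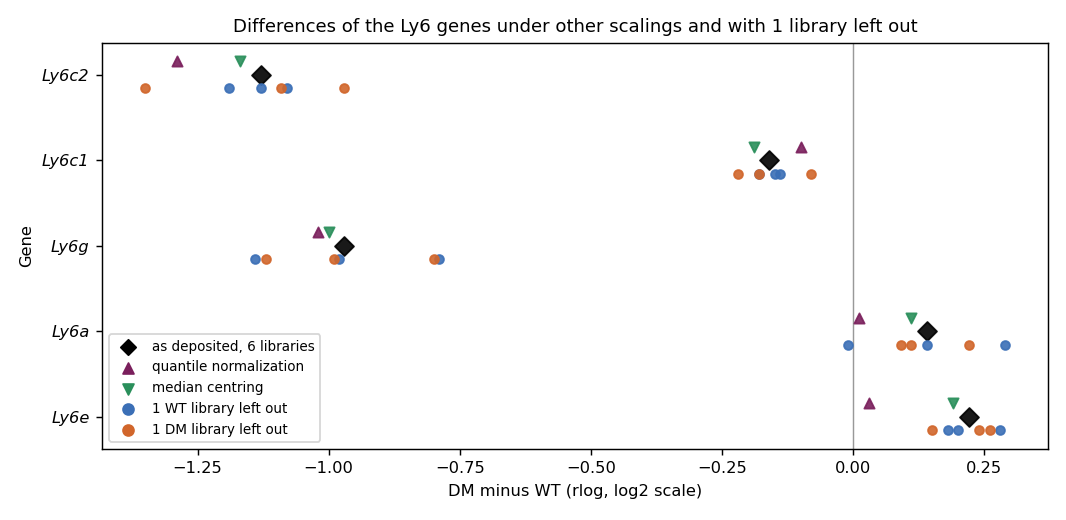
For each Ly6 gene the difference DM minus WT (rlog, log2 scale) is plotted from the deposited values (diamond), after quantile normalization or median centring (triangles) and with 1 WT or 1 DM library left out (blue and orange circles). Ly6c2 and Ly6g stay at -0.79 or below, and Ly6a and Ly6e lie close to 0 after quantile normalization (0.01 and 0.03).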

How the data were processed

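Total RNA of 6 libraries was sequenced, 3 WT and 3 DM. Per the submitters' processing notes, cutadapt 2.6, STAR 2.7.3 and DESeq2 1.30.0 were used with build mm10. The counting tool, the annotation and the use of strand are not given in the sources used here. The table deposited by the authors holds rlog values on the log2 scale, read as such from its name and values. Its 142699 lines were merged into 55487 genes. Coordinates, exon lengths and transcripts are from GENCODE M21 on GRCm38, which matched 98.1% of gene identifiers. Genes with a mean of at least 3 (18766) were fitted with limma 3.58.1 in R 4.3.3 (lmFit, eBayes with a mean-variance trend), DM against WT without covariates, on the deposited log2 values, with Benjamini-Hochberg adjustment over all tested genes and a threshold of 0.05. The fit was tested on simulated data.

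The 5 members and the gene lists were chosen with earlier results of these data known. Named genes were the members, every tested gene of the LU domain list, up to 4 called genes with the largest change per other list, called genes of the cluster, and the 3 nearest profiles per member. Defining markers and genes said to be named after their values were seen were added. The lists were other LU domain, GPI anchor, maturing neutrophil, Ly6C-high monocyte, Ly6C-low monocyte, macrophage, interferon response, stem and progenitor, plasmacytoid dendritic cell, endothelial, lymphoid and plasma cell, erythroid, megakaryocyte, and mast cell, basophil and eosinophil genes. Sequences were aligned with Biopython 1.88 (global alignment). The motifs were chosen after the sequences were seen. The 12 alternatives were no filter, a mean of at least 5, no trend, quantile normalization, median centring, a replicate block, and each library left out in turn.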

Additional observations from a re-analysis of the deposited data

How the results depend on the processing

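For 52 genes (the tested LU domain genes, the called genes named from the other lists, and Mllt3) 615 values were computed under the 12 alternatives. Of these 532 kept their direction and their side of the threshold, 77 lost the call (61 of them with 1 library left out), 1 gained it and 5 changed direction. The 5 were Cd59b (0.05 after quantile normalization, 0.02 without WT replicate 2), Ly6m (0.01) and Lypd6 (0.00) after quantile normalization, and Ly6h (0.03) without WT replicate 3, none of them called. Changing the filter, dropping the trend or adding the replicate block leaves the difference itself as it was, so no direction could change there. Genes not called in the main fit had no call to lose. The number kept is therefore partly fixed in advance. With 1 library left out Cd59b ran from -0.05 to 0.02 and Ly6h from -0.12 to 0.03. The Ly6e difference was 0.03 after quantile normalization, and the Ly6a difference ran from -0.01 to 0.29 with 1 library left out. The lymphoid and plasma cell list had 0 genes called without the filter, with median centring, with the replicate block and without any 1 library (0 to 0), and the megakaryocyte list 0 after quantile normalization. With 1 library left out, the number of genes called ran from 1119 to 3475 over all genes, 3 to 5 for other LU domain, 2 to 6 for GPI anchor, 7 to 12 for Ly6C-high monocyte, 1 to 5 for Ly6C-low monocyte, 2 to 6 for stem and progenitor, 2 to 4 for macrophage, 0 to 1 for plasmacytoid dendritic cell, endothelial and megakaryocyte genes, and 0 to 3 for the Ly6 cluster. The cause of these shifts was not tested, though fewer libraries also give less power. With the replicate number as a block 3742 genes were called. Same-numbered libraries had correlated deviations for number 1 (0.49), and hardly for 2 (0.12) and 3 (0.04, where WT replicate 3 was closer to DM replicate 2), so the numbers were not taken as pairs. No setting was added after the data were seen. Depth is unknown, so precision was read from the 3 libraries of each group alone.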

Other observations

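Genes of other lineages that the cytokines can support bear on what else the cultures held. Genes of mast cells, basophils and eosinophils were abundant, with means from 12.54 to 17.86 for the 8 listed genes. The eosinophil granule genes Epx (-1.46, limma adjusted p 0.000118) and Prg2 (-1.16, 0.00381) fell, with no overlap between the groups, and none of the other 6 was called. Of 4 megakaryocyte genes all were higher in DM by their means and Gp1ba was called (0.55, limma adjusted p 0.017), a call lost without DM replicate 2 (0.53, 0.0625) and after quantile normalization (0.45, 0.0611). Of 6 erythroid genes 5 were tested, and limma called 0 of them, with 0 at an unadjusted p under 0.05.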
